A study of Mus musculus with 8 samples.

Results

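The 10 genes Wnt7a, Wnt6, Wnt10a, Wnt1, Wnt10b, Wnt9b, Wnt3, Wnt5a, Wnt4 and Wnt11, which encode secreted Wnt ligands, were examined for 2 histone marks in cultured mouse germline stem (GS) cells. Members were the listed peaks that overlapped 7 intervals chosen by position around these genes. They numbered 211 of the 233295 peaks in the 8 lists, 108 of them for H3K4me3 and 103 for H3K27me3. The genes of 3 pairs lie side by side and share an interval, so a peak there was not assigned to either gene of the pair. The intervals are chr6:91305000-91375000 for Wnt7a, chr1:74810000-74860000 for Wnt6/Wnt10a, chr15:98590000-98635000 for Wnt1/Wnt10b and chr11:103575000-103695000 for Wnt9b/Wnt3. Those of the single genes are chr14:29300000-29350000 for Wnt5a, chr4:136825000-136865000 for Wnt4 and chr7:105970000-106015000 for Wnt11. They add up to 420 kb.

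GS cells are the cultured form of spermatogonial stem cells, the cells that renew themselves in the testis and give rise to sperm. These were labelled wild type and came from the testis of mice with a DBA/2 background that carry the green fluorescent protein transgene of the C57BL/6 Tg14(act-EGFP)OsbY01 line, called Green mice. Cells of both ages carry it. They had been kept for approximately 5 months (5M) or 60 months (60M) with the growth factors FGF2 and GDNF and with fetal bovine serum. Chromatin immunoprecipitation and sequencing gave 2 libraries for each mark and age. The labels do not say whether these came from separate cultures, lines or clones, so the spread between libraries may be technical. The series title names Wnt7b and Jnk in the aging of spermatogonial stem cells, and the comparison described here is that of the other Wnt ligand genes between the 5M and 60M cultures. All positions of peaks follow mm9 chromosome lengths. No gene annotation of that build was used, so peaks were not placed at promoters, exons or introns, and the identity of the cells was not checked against marker genes.

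Wnt ligands are lipid-modified proteins that act on nearby cells through Frizzled receptors. Binding either stabilises beta-catenin, which then acts on target genes, or works without it through Jnk and related kinases. Wnt1, Wnt3, Wnt6, Wnt9b, Wnt10a and Wnt10b are mostly known for the first branch, Wnt5a and Wnt11 for the second, and Wnt4 and Wnt7a for either, depending on the cell. In the embryo these genes are turned on in a few cells at a time. H3K4me3, trimethylation of histone H3 at lysine 4, marks promoters that are active or poised. H3K27me3, set by the Polycomb complex PRC2, marks silent developmental genes, and both marks together are known from the CpG-rich promoters of such genes in stem cells.

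The CpG content of the promoters is shown first because both marks are known to gather at CpG-rich starts. RefSeq sequences (GRCm38.p6) from 250 bases before to 50 after the start were matched by symbol for 8 of the 10 genes, Wnt10a and Wnt5a being the others. The 250 bases before the start are printed 5′ to 3′ on the gene's strand, with every CG dinucleotide in capitals, for the gene richest in CG (Wnt4), the gene poorest in CG (Wnt10b), its neighbour Wnt1 and Wnt7a. These 4 stretches lie at chr4:137277385-137277634 (plus strand), chr15:98778151-98778400 (minus strand), chr15:98789607-98789856 (plus strand) and chr6:91411354-91411603 (minus strand) of GRCm38.p6, and these coordinates cannot be set against those of the peaks.
Wnt4: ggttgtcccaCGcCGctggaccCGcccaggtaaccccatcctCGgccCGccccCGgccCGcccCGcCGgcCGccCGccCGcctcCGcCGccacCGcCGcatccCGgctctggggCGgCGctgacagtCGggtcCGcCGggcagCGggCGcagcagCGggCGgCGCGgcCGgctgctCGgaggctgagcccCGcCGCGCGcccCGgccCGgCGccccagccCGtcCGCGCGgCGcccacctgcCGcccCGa
Wnt10b: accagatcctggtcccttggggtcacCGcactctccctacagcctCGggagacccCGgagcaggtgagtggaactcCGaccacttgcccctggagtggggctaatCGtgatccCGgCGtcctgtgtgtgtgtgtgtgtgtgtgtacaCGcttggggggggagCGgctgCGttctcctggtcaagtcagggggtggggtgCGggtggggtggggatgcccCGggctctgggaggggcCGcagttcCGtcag
Wnt1: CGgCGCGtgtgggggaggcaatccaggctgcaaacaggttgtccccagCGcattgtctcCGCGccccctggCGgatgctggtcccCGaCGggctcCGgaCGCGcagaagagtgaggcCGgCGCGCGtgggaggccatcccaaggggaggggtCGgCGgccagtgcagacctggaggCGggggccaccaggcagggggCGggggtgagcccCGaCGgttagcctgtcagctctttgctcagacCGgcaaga
Wnt7a: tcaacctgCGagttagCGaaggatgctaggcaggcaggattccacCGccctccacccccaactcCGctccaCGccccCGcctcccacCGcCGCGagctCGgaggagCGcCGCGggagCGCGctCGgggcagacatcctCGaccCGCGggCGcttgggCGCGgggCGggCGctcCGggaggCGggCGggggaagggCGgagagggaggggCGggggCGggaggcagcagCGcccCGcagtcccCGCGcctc

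Over the full 300 bases, the Wnt4 promoter held 51 CG dinucleotides, more than 99.3% of the 32851 promoters of the table, whose median was 7. Wnt7a held 42, Wnt6 31, Wnt9b 29, Wnt1 26, Wnt3 24 and Wnt10b 18. Wnt11 has 2 listed starts, with 45 and 23. Every one of these 9 windows therefore had more CG than the median promoter, and Wnt10b, at the 70.3rd percentile, was nearest to it. GC content ran from 59.3% at the second Wnt11 start to 84.3% at Wnt4, where the median promoter had 52.7%. On both strands, the letters GGGCGG were found in 8 of the 9 windows (not in Wnt10b) and in 35.7% of all promoters. TATAAA was found only at the first Wnt11 start and in 13.6% of all promoters, and CACGTG in none of the 9 and in 7.15% of all. CACGTG can share its last G with GGGCGG, and a match is only a match of letters.

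H3K4me3 was listed in all 7 intervals in every library, with 27 peaks in each of the 4 lists. The listed length over the 7 intervals was 65 and 64 kb in the 5M libraries, compared with 69 and 72 kb in the 60M libraries. The groups did not overlap, with a mean at 5M of 64.5 ± 0.707 kb and at 60M of 70.5 ± 2.12 kb (SD, n = 2), a difference of 6 kb. A two-sided exact permutation test gave p = 0.333, which is the smallest value that 2 libraries against 2 can give, so no difference in length here could be called significant. The listed length was 15.4% of the intervals at 5M and 16.8% at 60M, against 3.75% and 3.67% of all chromosomes. The all-chromosome lengths overlapped between the ages.

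**Figure D1:**
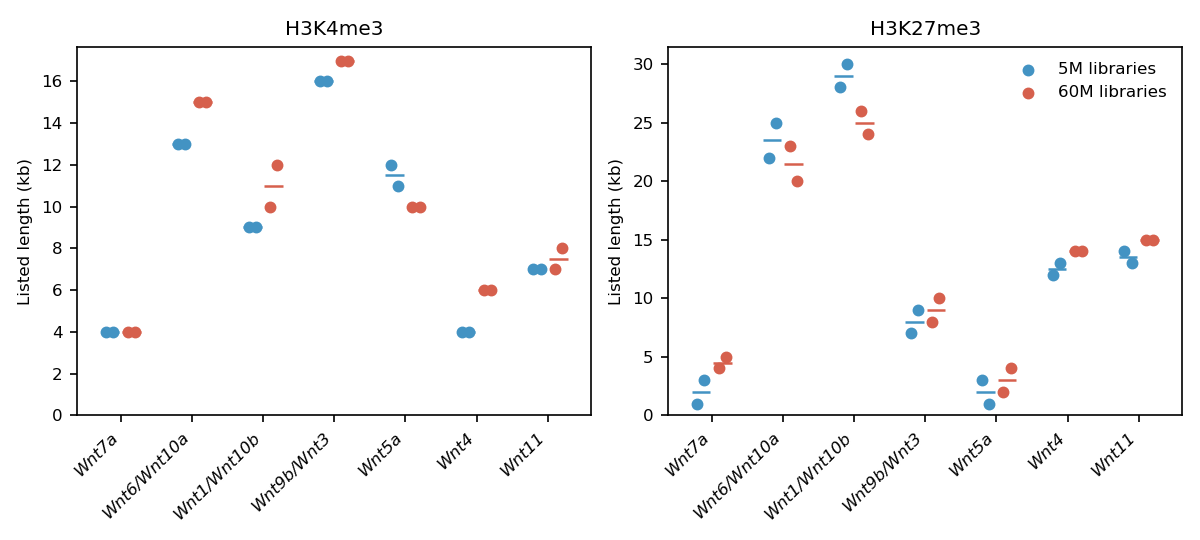
Listed length (kb, y axis) of H3K4me3 (left) and H3K27me3 (right) in each of the 7 intervals, with 1 point per library and a line at the mean of 2 libraries. H3K4me3 was longer at 60M in 4 intervals and shorter in Wnt5a, and H3K27me3 in Wnt1/Wnt10b went from 28 and 30 kb to 26 and 24 kb.

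The length of H3K4me3 differed by interval. In Wnt6/Wnt10a it was 13 kb in both 5M libraries and 15 kb in both 60M libraries. In Wnt1/Wnt10b it was 9 kb in both 5M libraries but 10 and 12 kb at 60M. In Wnt4 it was 4 kb in both 5M libraries and 6 kb in both 60M libraries. These 3 intervals, with Wnt9b/Wnt3 (16 kb in each 5M library, 17 kb in each 60M library), had more listed H3K4me3 in every 60M library than in any 5M library. Wnt5a went the other way, from 12 and 11 kb to 10 kb in both 60M libraries. Wnt7a had 4 kb in all 4 libraries, and Wnt11 had 7 kb in 3 of them and 8 kb in the second 60M library. Where the ages did not overlap, the two-sided exact permutation test gave p = 0.333, its smallest value. How often the ages fail to overlap in comparable intervals elsewhere was not counted.

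Peaks of the 4 lists that shared at least 1 bp were merged into regions, which gave 29 H3K4me3 regions. Of these, 25 (86.2%) were listed in all 4 libraries, against 64.5% of the 54585 merged regions of all lists. The fifth Wnt1/Wnt10b region, chr15:98635000-98638999, touches its interval only with its first base and adds nothing to the listed lengths. Another 2 (6.9%) were in both 5M libraries but in neither at 60M, where the share over all regions was 10.1%. The remaining 2 (6.9%) were in both 60M libraries but in neither at 5M, where the share was 4.46%. These shares are near the background, and with so few regions neither count stands apart from it.

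The regions found at 5M only were chr11:103592000-103592999 in Wnt9b/Wnt3 and chr14:29335000-29336999 in Wnt5a. Strength is given from here on as the percentile of the authors' peak signal within its own list, because the scale of the signal between libraries is not given. The first of these regions stood at percentiles 24.9 and 28.8 in the 5M lists, and the second at 31.0 and 27.6. Those found at 60M only were chr11:103639000-103639999 in Wnt9b/Wnt3, at percentiles 23.7 and 28.1, and chr4:136838000-136839999 in Wnt4, at 10.2 and 18.2. All 4 regions that differed in listing thus stood at percentile 31.0 or lower in the lists that held them, among the weaker peaks. Absence from a list means only that no peak passed the authors' threshold, and the mark may still be present.

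**Figure D2:**
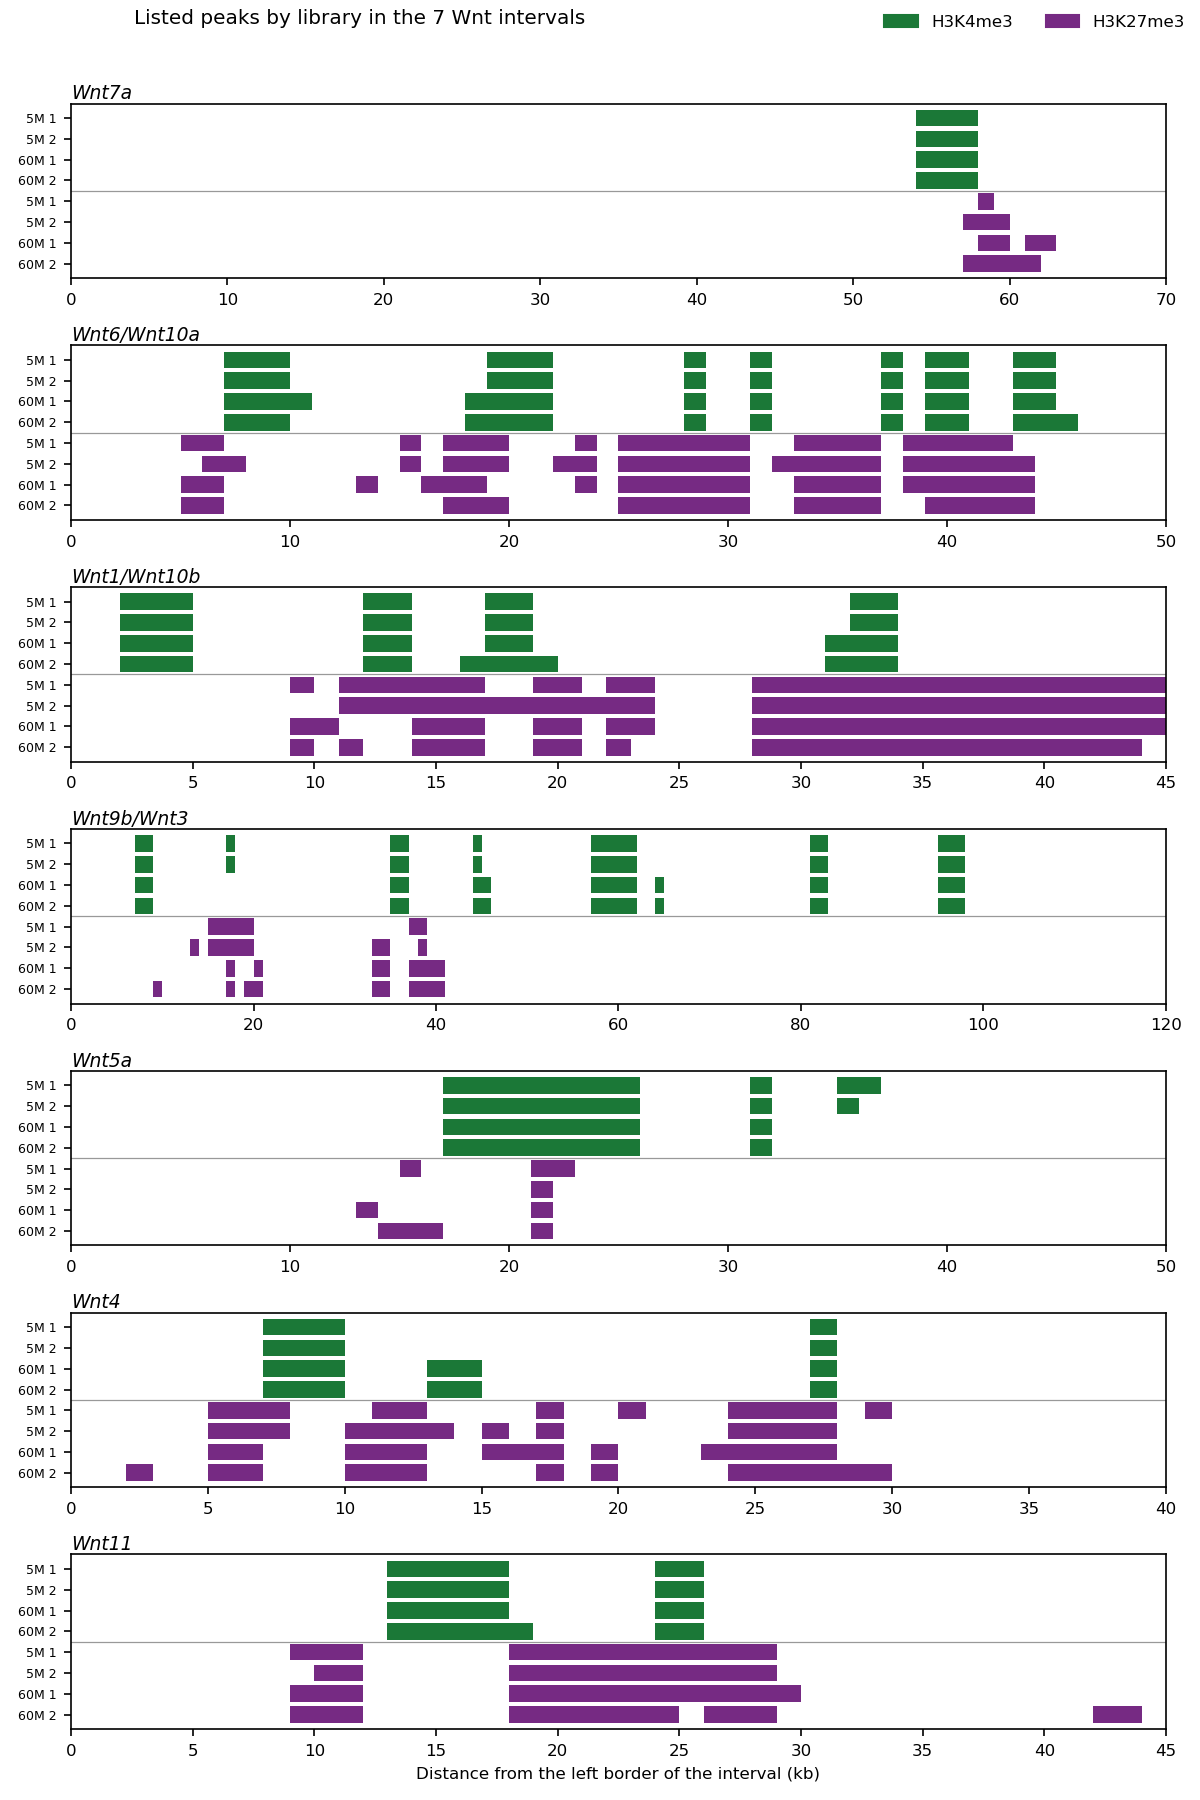
Listed peaks along the 7 intervals, with distance from the left border of the interval in kb on the x axis and 1 row per library (green H3K4me3, purple H3K27me3). H3K4me3 blocks line up over the 4 libraries, and H3K27me3 blocks lie on or beside many of them, with none listed past 41 kb in Wnt9b/Wnt3.

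The tallest H3K4me3 region of an interval stood at percentile 84.6 or more in every library in 6 of the 7 intervals. In Wnt7a, known for dorsal limb patterning and the female reproductive tract, the only region was chr6:91359000-91362999, at percentiles 91.2 and 94.0 in the 5M libraries and 92.9 and 92.1 in the 60M libraries. The ages overlapped there. In Wnt4, which is needed for kidney tubules and the female gonad, chr4:136832000-136834999 stood at 92.6 and 95.7 at 5M and at 95.9 and 98.6 at 60M. Both 60M values were above both 5M values, though the nearest pair was almost equal. Wnt11, which acts in cell movements of the embryo and in kidney branching, had the lowest of these leading regions, chr7:105983000-105988999. It stood at 73.2 and 76.1 at 5M and at 72.2 and 79.4 at 60M, again with overlapping ages.

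In the paired intervals the leading regions were also high. In Wnt6/Wnt10a, whose second gene is known for teeth and skin appendages, chr1:74817000-74820999 stood at 85.7 and 89.2 at 5M and 89.9 and 94.1 at 60M. In Wnt9b/Wnt3, genes known for induction of kidney tubules (Wnt9b) and for gastrulation (Wnt3), chr11:103670000-103672999 stood at 94.9 and 96.5 at 5M and 97.6 and 97.8 at 60M. The nearby chr11:103632000-103636999 was as tall (96.4 and 96.7, then 94.8 and 96.8) and 5 kb wide. In Wnt1/Wnt10b, chr15:98592000-98594999 was the tallest of all 29, at 98.9 and 99.1 at 5M and 98.1 and 98.8 at 60M. No H3K27me3 peak overlapped or bordered it in any library. In GRCm38.p6 the protein-coding neighbours of the pair are Arf3 on the side of Wnt10b and Ddn on the side of Wnt1. Which gene this region belongs to was not determined.

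The Wnt5a region stood out by width. Wnt5a, a ligand of the branch without beta-catenin that acts in limb outgrowth and tissue polarity, had chr14:29317000-29325999 listed as a single peak of 9 kb in all 4 libraries. That was wider than 99.8 to 99.9% of the peaks of each H3K4me3 list. Its strength was 84.6 and 86.1 at 5M and 91.3 and 89.5 at 60M, so both 60M values lay above both 5M values. Next to it, chr14:29331000-29331999 varied between the 60M libraries (66.7 and 43.0) more than between the ages (61.7 and 60.3 at 5M).

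Among the 25 regions in all 4 lists, 3 were wider in both 60M libraries than in both 5M libraries, where 7.43% of all shared regions were, and 0 were narrower, where 2.49% of all were. Each of the 3 had gained 1 kb, or 1 bin of the lists. They were chr1:74828000-74831999 in Wnt6/Wnt10a (3 kb in both 5M libraries, 4 kb in both 60M libraries), chr15:98621000-98623999 in Wnt1/Wnt10b (2 and 3 kb) and chr11:103619000-103620999 in Wnt9b/Wnt3 (1 and 2 kb). The counts of single 1 kb bins were alike: of 76 bins with H3K4me3 in any library, 62 (81.6%) were in all 4, against 65.2% over all lists. Only 2 bins (2.63%) were in both 5M libraries but in neither at 60M, against 7.27% of all bins, and 6 (7.89%) were in both 60M libraries but in neither at 5M, against 5.22%.

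Ranks of strength were more often higher than lower at 60M in the shared H3K4me3 regions. In 12 of the 25, both 60M percentiles were above both 5M percentiles, where 21.4% of all 35229 shared regions were. In 2 of the 25, both were below, where 44.5% of all were. The median difference, 60M minus 5M, was 3.12 percentile points in the Wnt regions and -1.52 over all shared regions. The median percentile itself was 57.9 against 59.4. This direction of the background depends on the ranking: with the lists of equal length, 16 of 24 were higher and 1 lower, where the shares over all shared regions were 37% and 27.4%. Ranked only among shared regions, 15 were higher and 1 lower, where the shares were 30.3% and 32.5%. The Wnt counts kept their direction under each ranking. On the authors' own signal, 17 were higher and 2 lower at 60M. Of all 35229 shared regions, 14848 were higher and 5641 lower by that measure. The median signal of the whole lists was also higher at 60M (215 and 238) than at 5M (183 and 179).

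The largest shift in rank was at chr15:98606000-98609999 in Wnt1/Wnt10b. It stood at percentiles 21.7 and 21.1 in the 5M libraries and 35.0 and 53.7 in the 60M libraries. The groups did not overlap, and the second 60M library stood well above the first. The same library was the higher of the 60M pair at chr15:98621000-98623999 (36.5 and 41.7, then 47.3 and 63.4) and at chr15:98635000-98638999 (62.4 and 64.7, then 71.2 and 77.1). Its list is the shortest of the 4 H3K4me3 lists, at 41637 peaks against up to 47415, and the part of list length in these shifts was not tested beyond the equal-length ranking above. The 2 regions with lower ranks, chr15:98592000-98594999 and chr11:103610000-103611999 in Wnt9b/Wnt3 (74.3 and 75.8, then 72.8 and 72.1), stayed close to their 5M ranks.

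**Figure D3:**
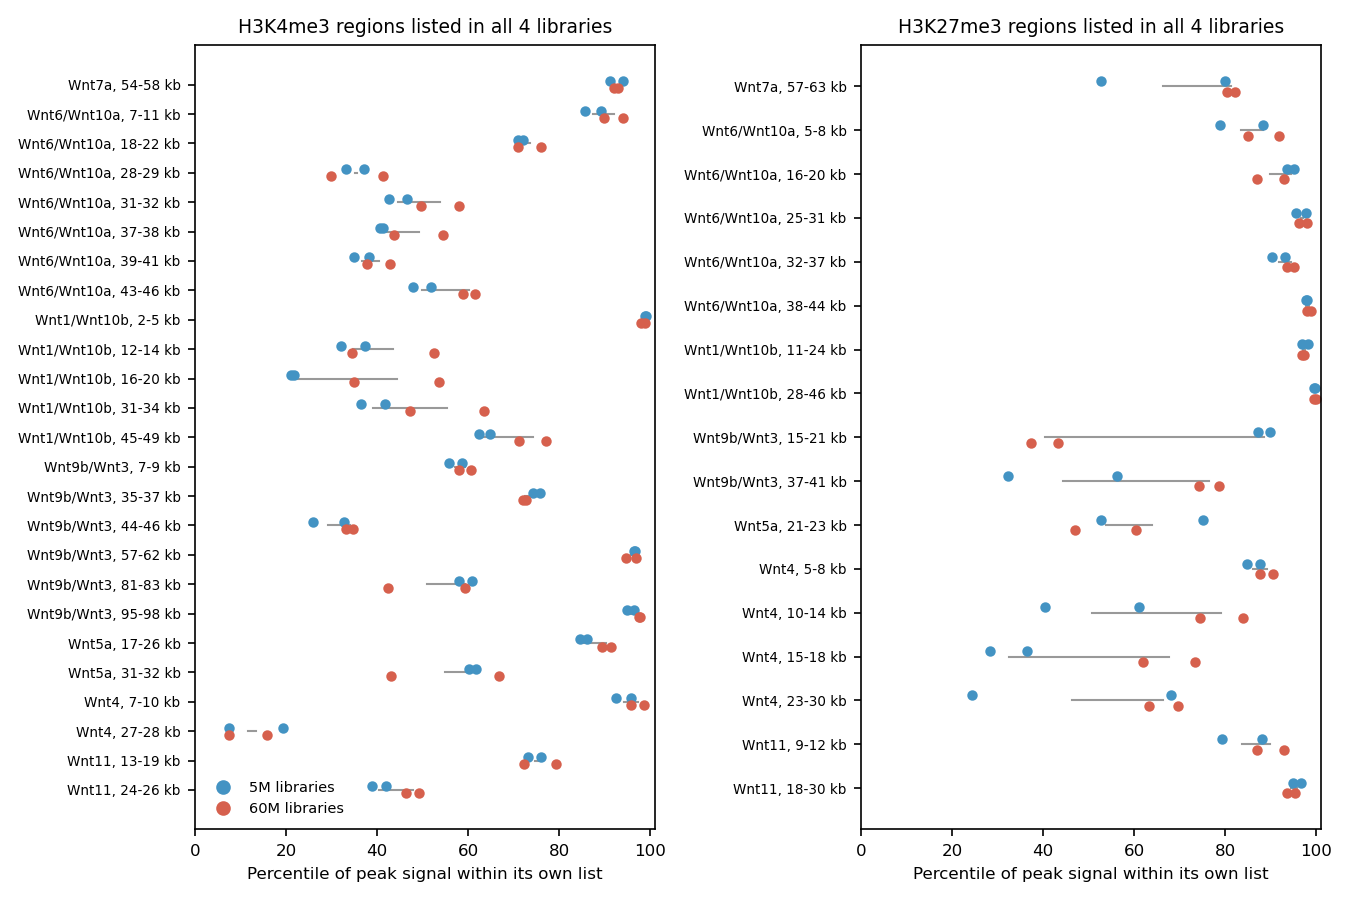
Percentile of the peak signal within its own list (x axis) for each region listed in all 4 libraries of H3K4me3 (left, 25 regions) and H3K27me3 (right, 17 regions), named by interval and distance from its left border. Points are libraries (blue 5M, red 60M) and grey lines join the means. In H3K4me3 the widest shift is Wnt1/Wnt10b at 16 to 20 kb, from 21.7 and 21.1 to 35.0 and 53.7, and in H3K27me3 it is Wnt9b/Wnt3 at 15 to 21 kb, from 87.3 and 89.8 to 43.3 and 37.3.

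H3K27me3 was listed in all 7 intervals and in every library, with 25 and 22 peaks at 5M and 27 and 29 at 60M. The listed length was 87 and 94 kb in the 5M libraries, compared with 92 kb in both 60M libraries. The ages overlapped, with means of 90.5 ± 4.95 kb and 92 ± 0 kb (SD, n = 2) and a difference of 1.5 kb (two-sided exact permutation p = 1). Without the first 5M library the difference was -2 kb. The mark took up 21.5% of the intervals at 5M and 21.9% at 60M, against 1.15% and 1.04% of all chromosomes. More of the intervals was thus listed for H3K27me3 than for H3K4me3, although the H3K27me3 lists were shorter (12002 to 14940 peaks).

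Similar totals went with differences in single intervals. In Wnt1/Wnt10b the listed H3K27me3 length was 28 and 30 kb at 5M, then 26 and 24 kb at 60M, lower in both 60M libraries. As shares of that interval these were 64.4 ± 3.14% and 55.6 ± 3.14% (SD, n = 2). Wnt7a had 1 and 3 kb at 5M, then 4 and 5 kb at 60M, higher in both 60M libraries. Wnt4 had 12 and 13 kb, then 14 kb in both 60M libraries, and Wnt11 14 and 13 kb, then 15 kb in both. In Wnt6/Wnt10a (22 and 25 kb, then 23 and 20 kb), Wnt9b/Wnt3 (7 and 9 kb, then 8 and 10 kb) and Wnt5a (3 and 1 kb, then 2 and 4 kb) the ages overlapped. For each of the 4 intervals whose ages did not overlap the two-sided exact permutation test gave p = 0.333, its smallest value. Comparable intervals elsewhere were not counted for this mark either.

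Merging gave 30 H3K27me3 regions, of which 17 (56.7%) were in all 4 libraries, against 18.6% of the 26634 regions of all lists. Only 7 (23.3%) were in a single library, against 54.8% of all. Only 1 (3.33%) was in both 5M libraries but in neither at 60M, where the share over all was 6.02%, and 1 was in both 60M libraries but in neither at 5M, where it was 4.39%. The first was chr1:74825000-74825999 in Wnt6/Wnt10a, at percentiles 74.3 and 77.9. It borders another peak, and neither this region nor the second was counted once peaks up to 1 kb apart were merged. The second was chr4:136844000-136844999 in Wnt4, at percentiles 29.8 and 17.6. Of 123 bins of 1 kb with H3K27me3 in any library, 64 (52.0%) were in all 4, against 20.6% over all lists. There were 7 bins (5.69%) in both 5M libraries alone, against 8.92%, and 5 (4.07%) in both 60M libraries alone, against 4.55%.

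The widest H3K27me3 domain was in Wnt1/Wnt10b. Wnt1 is known for the midbrain and hindbrain border and Wnt10b for holding back fat cell formation. The domain, chr15:98618000-98635999, was 17 and 18 kb wide at 5M, then 17 and 16 kb at 60M. By signal it ranked 52 and 35 in the 5M lists and 19 and 52 in the 60M lists, at percentiles from 99.6 to 99.9, so it was among the strongest peaks of every H3K27me3 list. The ages overlapped in both width and rank. Its neighbour chr15:98601000-98613999 kept its rank (96.8 and 98.2, then 96.9 and 97.4) and was listed over 10 and 13 kb at 5M, then 7 kb in both 60M libraries. The shorter H3K27me3 in this interval came mainly from that second domain.

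Wnt6/Wnt10a had 5 H3K27me3 regions in all 4 libraries. The widest, chr1:74835000-74840999, covered 6 kb in every library, at percentiles 95.6 and 97.7 at 5M and 96.2 and 98.0 at 60M. The strongest, chr1:74848000-74853999, stood at 97.8 and 97.9, then 98.8 and 98.0. In Wnt11 the widest was chr7:105988000-105999999, with 11 kb in both 5M libraries, then 12 and 10 kb, at percentiles 94.9 and 96.7, then 95.4 and 93.5. In these 3 regions of Wnt6/Wnt10a and Wnt11 the ages overlapped in width, and only chr1:74848000-74853999 had both 60M ranks above both 5M ranks.

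Elsewhere H3K27me3 was narrower and lower in rank. The Wnt7a region, chr6:91362000-91367999, covered 1 and 3 kb at 5M, then 4 and 5 kb at 60M, at percentiles 52.7 and 79.9, then 80.5 and 82.1. The first 5M library was well below the other 3 there, which lay close together. The widest Wnt4 region, chr4:136848000-136854999, covered 5 and 4 kb, then 5 and 6 kb, and varied most between the 5M libraries (68.1 and 24.4, then 63.2 and 69.7). The only Wnt5a region in all 4 libraries, chr14:29321000-29322999, covered 2 kb in the first 5M library and 1 kb in the others, at percentiles 52.7 and 75.1, then 47.1 and 60.4.

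Wnt9b/Wnt3 held a pair of H3K27me3 regions that moved in opposite directions. The region chr11:103590000-103595999 covered 5 kb in both 5M libraries but 2 and 3 kb at 60M, and its percentile went from 87.3 and 89.8 to 43.3 and 37.3. The region chr11:103612000-103615999 covered 2 and 1 kb at 5M, then 4 kb in both 60M libraries, and its percentile went from 56.3 and 32.3 to 74.2 and 78.7. Neither pair of groups overlapped. At 5M the first region had the higher rank in both libraries, and at 60M the second had, so the leading H3K27me3 region of the interval was a different one at each age. The weaker side of each shift had low deposited −log10 p against the control, in lists that start at 3.01. It was at most 6.1 and 3.8 in the first region at 60M, and 4.11 and 3.75 in the second at 5M. Rank also moved in Wnt4, upward, at chr4:136835000-136838999 (40.3 and 61.1, then 83.9 and 74.5) and chr4:136840000-136842999 (36.4 and 28.4, then 73.3 and 61.9).

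Over the 17 H3K27me3 regions in all 4 libraries, 2 were wider at 60M (8.28% of all 4962 shared regions were) and 3 were narrower (16.7% of all). By rank, 7 were higher in both 60M libraries (28.4% of all) and 2 were lower (21.7% of all). The median difference was 2.59 percentile points, against 0.60 over all shared regions. The median percentile was 86.8, against 72.5 over all.

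Both marks lay close together in most intervals. Overlap was scored on the merged H3K4me3 region, which can be wider than the peak of a single library. Of the 25 H3K4me3 regions in all 4 libraries, an H3K27me3 peak overlapped 11 and 15 in the 5M libraries and 10 and 11 in the 60M libraries (44 and 60%, then 40 and 44%). Over all 35229 shared H3K4me3 regions these shares were 8.57 and 11.3%, then 8.19 and 7.97%. In both 5M libraries 11 were overlapped, where the share over all was 7.89%, and in both 60M libraries 10, where it was 5.89%. In all, 9 regions (36%) were overlapped in all 4 libraries, against 4.85% of all. The ages overlapped in the count per library.

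The 9 merged regions overlapped by H3K27me3 in all 4 libraries were spread over 5 intervals. Wnt6/Wnt10a had 3 (chr1:74828000-74831999, chr1:74838000-74838999 and chr1:74849000-74850999). Wnt1/Wnt10b had 2 (chr15:98606000-98609999 and chr15:98621000-98623999), and Wnt11 had 2, which were all of its H3K4me3 regions (chr7:105983000-105988999 and chr7:105994000-105995999). Wnt4 had chr4:136852000-136852999 and Wnt5a the 9 kb region. Not all of these overlaps held for the peaks of each library. Within chr15:98606000-98609999, the first 5M and first 60M libraries listed H3K4me3 at 98607000-98608999. Their H3K27me3 peaks ended at 98606999 and began again at 98609000, so they only bordered it. At the leading Wnt11 region, H3K27me3 began at 105988000 in every library. Only the second 60M library listed H3K4me3 past that position, to 105988999. In the other libraries the H3K4me3 peak ended at 105987999, so H3K27me3 bordered it without overlap. In Wnt9b/Wnt3, none of the 6 shared H3K4me3 regions was overlapped in any library. In Wnt7a the single region was overlapped by 1 kb in the second library of each age and bordered without overlap in the first.

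In both 5M libraries but not in both 60M libraries, H3K27me3 overlapped 2 of the 25 regions, where 3.03% of all shared regions were. The reverse held for 1 of the 25, where the share was 1.04%. At chr15:98602000-98603999 in Wnt1/Wnt10b, 2 kb of the H3K4me3 region was also listed for H3K27me3 in both 5M libraries and 0 kb in both 60M libraries. At the leading Wnt4 region, chr4:136832000-136834999, it was 1 kb in both 5M libraries and 0 kb in both 60M libraries, where the H3K27me3 region chr4:136830000-136832999 was 3 kb wide at 5M, then 2 kb at 60M. Its H3K27me3 percentile was 84.8 and 87.6 at 5M and 87.7 and 90.5 at 60M, so a narrower listing went with a slightly higher rank. At chr1:74853000-74855999 in Wnt6/Wnt10a the overlap was 0 and 1 kb at 5M, then 1 kb in both 60M libraries, and it was the 1 counted for 60M. The 5M-only H3K4me3 region in Wnt9b/Wnt3, chr11:103592000-103592999, lay inside the H3K27me3 region of that interval that was narrower at 60M. These positions themselves stayed listed for H3K27me3 in all 4 libraries.

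H3K27me3 was listed more often beside H3K4me3 than on it. Counted in 1 kb bins, H3K27me3 took up 25.7 and 32.4% of the bins inside the 25 shared regions at 5M and 20.3 and 21.6% at 60M. In the bins 1 kb outside, it took up 50 and 56% at 5M and 52 and 54% at 60M. At 2 kb the means were 52 and 55%, at 4 kb 30 and 34%, and at 10 kb 32 and 30%. The share thus peaked just outside the H3K4me3 regions at both ages, and inside them it was lower in both 60M libraries than in both 5M libraries. Around all 35229 shared regions the means were lower: 6.99% inside at 5M and 4.93% at 60M, 9.4% at 1 kb at both ages, and 2.45 and 2.31% at 10 kb. There too the share was higher at 1 kb than inside. The order of inside and far bins differed, since over all lists the share inside was above that at 10 kb at both ages, and in the Wnt intervals it was below it. Bins outside 1 region could lie inside another H3K4me3 region or be counted for both. The bin between chr1:74847000-74847999 and chr1:74849000-74850999 was such a bin. How far the close spacing of the Wnt regions shaped these shares was not tested. The lower share inside at 60M was therefore also in the lists as a whole.

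**Figure D4:**
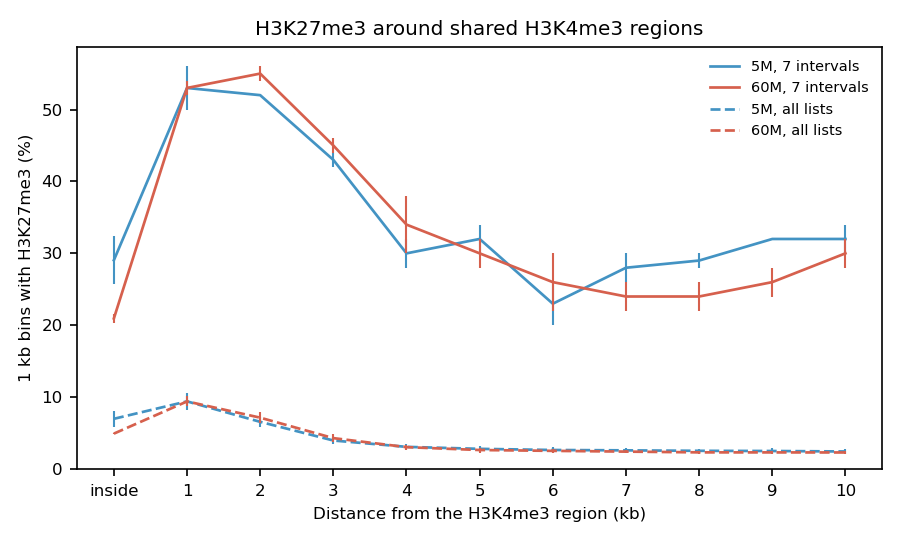
Share of 1 kb bins listed for H3K27me3 (%, y axis) inside and at 1 to 10 kb from H3K4me3 regions listed in all 4 libraries, for the 25 regions of the 7 intervals (solid) and all 35229 regions (dashed). Lines are means of 2 libraries at 5M (blue) and 60M (red), and bars run from the lower to the higher library. In the Wnt intervals the share goes from 29.1% (5M) and 20.9% (60M) inside to 53% at 1 kb. A bin can be counted for more than 1 region.

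An H3K27me3 peak overlapped or directly bordered 18 of the 25 regions (72%) in all 4 libraries, against 9.35% of all shared regions. At least 1 side was bordered in all 4 libraries at 17 (68%, against 8.09%), and both sides at 4 (16%, against 2.56%). Of the bordered ones, 3 (12%, against 1.09%) were bordered in all 4 libraries with no H3K27me3 bin inside in any. They were chr1:74841000-74841999 and chr1:74847000-74847999 in Wnt6/Wnt10a and chr11:103610000-103611999 in Wnt9b/Wnt3. At 6 regions (24%, against 78.2%) no H3K27me3 was inside or at either side in any library. Of these 6, 4 were in Wnt9b/Wnt3, among them its 2 tallest, and the rest were chr14:29331000-29331999 in Wnt5a and the tallest region of Wnt1/Wnt10b. In GRCm38.p6, Gosr2 and Nsf are the protein-coding neighbours of the Wnt9b/Wnt3 pair, and these regions were not assigned to a gene.

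The amount of H3K27me3 inside was compared between strong and weaker H3K4me3 regions. In the 7 regions whose mean percentile was 80 or more, H3K27me3 took up 9.68 and 12.9% of the bins at 5M and 3.23 and 6.45% at 60M. In the 18 regions under 80 it took up 37.2 and 46.5%, then 32.6% in both 60M libraries. The same order was seen over all lists, with 3.94 and 2.23% in the means of 8852 strong regions and 8.63 and 6.38% in those of the 26377 others. Counted by region, with few regions, the order was less clear in at least 1 library than in all 4. H3K27me3 was inside in at least 1 library at 4 of the 7 strong and 11 of the 18 weaker regions (57.1 and 61.1%). Over all lists these shares were 9.75 and 15.2%. In all 4 libraries it was inside at 1 and 8 (14.3 and 44.4%), against 3.19 and 5.41% over all lists. Bins with both marks in both libraries of an age made up 14 of 64 kb of H3K4me3 at 5M (21.9%) and 11 of 68 kb at 60M (16.2%), against 4.3% and 2.93% over all lists. As a share of H3K27me3 they made up 17.7% and 14.1% in the Wnt intervals and 19.3% and 15.5% over all lists, so by this denominator the intervals did not stand above the rest.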

How the data were processed

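H3K4me3 and H3K27me3 were measured in 8 libraries, 2 for each mark and age, grouped by their labels. The submitters' processing notes name CASAVA 1.8.4, Bowtie 1.1.2 and the build mm10. Positions in the lists nevertheless follow mm9: 1331 peaks run past mm10 chromosome ends, and 2 run past mm9 ends, by up to 687 bp (lengths from GenomeInfoDb 1.38.1). The name of the peak caller was not given in the sources used here. For each library the authors deposited 1 peak list, not pooled, with borders in steps of 1000 bp. Per the file headers, each peak has a maximum immunoprecipitation signal, whose scaling between libraries is not given, and −log10 p-values, with and without reference to the control. The deposited −log10 p against the control runs from 3.01 to a ceiling of 15.95, which 69.6 to 78.5% of H3K4me3 peaks and 1.83 to 4.71% of H3K27me3 peaks reach. The deposited q-value is at most 0.00097 in every list. The lists give no read totals, so depth and the precision it allows are unknown.

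Overlapping peaks (by at least 1 bp) of a mark's 4 lists were joined into regions. Signals were ranked within each list. Listed length was compared with a two-sided exact permutation test over 6 arrangements of the libraries. Other counts are descriptions set beside the same count over all regions of the mark. A region counted as higher, wider, lower or narrower at 60M only where both 60M libraries lay beyond both 5M libraries. The code called the listing of 2000 of 2000 simulated regions as planted. These lay far apart, unlike many Wnt regions, and the calls of rank, width, border and distance were not simulated. Python 3.11.15, numpy 2.4.6, pandas 2.3.3, scipy 1.17.1 and matplotlib 3.10.9 were used. Alternatives were a stricter peak threshold, lists of equal length, merging over gaps of up to 1 kb, intervals widened by 10 kb, ranking among shared regions, each library left out in turn, and a replicate block.

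The genes, intervals and lists were chosen with earlier results of these data known. All 10 genes are named by interval. The rule for single regions took the tallest H3K4me3 and the widest H3K27me3 region of each interval, every region listed at 1 age only and every region with both marks, and the other regions named were chosen after their values were seen. The percentile of 80 that splits strong from weaker regions, and the counts of bordered regions, were also chosen with the data in view. The planned lists of other Wnt pathway genes and of cell type markers are not analysed here, because no annotation of the lists' build was used.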

Additional observations from a re-analysis of the deposited data

How the results depend on the processing

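Of 74 recomputed values for 17 results with all libraries kept, 59 were scored as the same. For the length differences this meant the same sign only. The H3K27me3 difference, for example, went from 1.5 to 3 kb in the widened intervals. Counts were scored as the same when they changed by at most 1.5-fold. The values with the replicate block were scored as the same by construction. With only peaks at the −log10 p ceiling, which few H3K27me3 peaks reach, the 60M minus 5M difference in H3K27me3 length turned to -18 kb. The H3K4me3 regions with H3K27me3 in both libraries, counted over all 29 regions, then went from 12 to 3 at 5M and from 10 to 1 at 60M, and the shared regions overlapped or bordered by H3K27me3 from 18 to 1 (0.442% of all). Under that threshold 0 H3K27me3 regions were 60M-only, higher, lower, wider or narrower at 60M, and 0 H3K4me3 regions were 5M-only. Only the H3K27me3 region chr15:98618000-98635999 reached the ceiling in all 4 libraries, so the counts of higher, lower, wider and narrower rest on it alone. Over all shared H3K27me3 regions these shares were 31, 24.6, 4.23 and 33.8%. With peaks up to 1 kb apart merged, no H3K27me3 region was limited to an age (0 at 5M, 0 at 60M). The H3K4me3 regions with a lower percentile at 60M went from 2 to 1 with equal list lengths, to 1 when ranked among shared regions and to 5 in the widened intervals.

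Of 80 values with 1 library left out, 62 stayed the same by these rules, and part of them could not have changed. The H3K4me3 length difference ranged from 4.5 to 7.5 kb and that of H3K27me3 from -2 to 5 kb, turning negative without the first 5M library of H3K27me3. Under every removal 2 H3K4me3 regions were 5M-only and another 2 were 60M-only. These 2 counts could not change, because each of the 29 regions was in all 4 libraries or in both of 1 age alone. They therefore do not show stability. Wider H3K4me3 regions ranged from 3 to 6 (6 without the first 60M library), higher ones from 12 to 18 and lower ones from 3 to 5 (4 without the first 5M library, 5 without either 60M library). Of H3K27me3 regions, 1 to 2 were 5M-only (2 without either 5M library or without the first 60M library) and 2 to 5 were 60M-only (2 without either 5M library, 4 without the first and 5 without the second 60M library). Higher H3K27me3 ranks ranged from 10 to 11 (11 without the second 5M library) and lower ones from 2 to 5 (5 without the first 5M library). Wider H3K27me3 regions ranged from 3 to 4 (4 without the first 5M or the second 60M library) and narrower ones from 3 to 6 (6 without the first 5M library, 5 without the first 60M library). H3K4me3 regions with both marks ranged from 10 to 16 at 5M and from 8 to 11 at 60M. Removing an H3K27me3 library of the other age cannot change these counts. With 1 library left in a group, a count rests on that library alone. The rule for higher, lower, wider or narrower regions is then also looser, so those counts can hardly fall below the ones with all libraries. Their ranges therefore do not show how stable the counts are. The shares over all regions were not computed with a library left out.

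The labels share replicate numbers between the ages. Deviations between replicates correlated between the ages at r = 0.0837 (across 35229 H3K4me3 regions) and 0.038 (4962 H3K27me3 regions). With 2 pairs and no record of the cultures, these values cannot tell whether the numbers pair the libraries. The main comparison left the libraries unpaired. With the replicate block the mean differences remain 6 kb and 1.5 kb by arithmetic, so only the p-value can change. The exact paired permutation test gave p = 0.5 and 1, 0.5 being the smallest p that 2 pairs allow.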
